A study of Mus musculus with 15 samples.

Results

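The collagen and laminin genes of the mouse were followed across 15 microarrays of cerebellar tissue, 3 of normal cerebellum and 12 of medulloblastoma. Members were taken by symbol alone, as every gene named Col, number, a, number or named Lama, Lamb or Lamc with a number. The rule found 48 genes, 39 collagens and 9 laminins, among 17158 genes named by symbol on the array. They were read by 79 probes, and for the 26 genes with several probes the brightest stood for the gene. A gene was tested where its signal was well above background on at least 3 arrays, which 42 members passed. The 6 that did not pass were Col4a3, Col6a6, Col10a1, Col24a1, Col28a1 and Lamc3. The RefSeq table holds 55 genes of this pattern, and the remaining Col6a3, Col6a5, Col12a1, Col20a1, Col22a1, Lama3 and Lamc1 were not analysed here.

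The tumours, MB1 to MB12, had arisen in Ptch1+/- mice on a C3B6F1 background, which carry 1 working copy of Patched1, the receptor that holds Hedgehog signalling off. They form 4 groups of 3 tumours: S-type without irradiation (0 Gy, MB1 to MB3), S-type after 0.2 Gy (MB4 to MB6), R-type after 0.2 Gy (MB7 to MB9) and R-type after 1.5 Gy of X-rays (MB10 to MB12), with irradiation on postnatal day 1. The labels do not say what S-type and R-type mean. They give ages without a unit, of 128 to 173 for S-type mice, 87 to 127 for R-type mice and 103 to 113 for the mice of the normal cerebella. No S-type tumour received 1.5 Gy and no R-type tumour went unirradiated, so that type, dose and age cannot be told apart over all 12 tumours. Both types are present at 0.2 Gy alone. MB6 came from the 1 male, and neither genotype nor strain is given for the normal cerebella, N1 to N3. The irradiated and unirradiated mice were kept until moribund. Nothing states that the 3 tumours of a group came from separate litters. The p-values of group comparisons weigh differences between group means against the spread within groups among these 15 tissues.

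Every level is given on the log2 scale after subtracting the 75th percentile of the array it came from, so that 0 stands for that percentile and a step of 1 is a doubling. Between 59.1% and 66.5% of probes were well above background on each array. The number of arrays limits the precision. Ptch1 itself lay between -3.33 and -3.03 in normal cerebella, between -2.08 and -1.46 in S-type tumours and between -3.16 and -2.71 in R-type tumours. The labelled tissues held their own markers. The mean level over 11 granule neuron precursor genes was -1.62 to -1.51 in normal cerebella and 2.63 to 3.03 in tumours, whereas 10 Purkinje cell genes averaged 4.41 to 4.57 and -3.49 to -1.31. MB2 and MB3 stood apart in choroid plexus transcripts: the mean over 8 choroid plexus genes was -0.89 in MB2 and -2.10 in MB3, against -4.11 to -3.00 in the other 10 tumours. In bulk tissue, fewer cells of a type and less RNA per cell cannot be told apart.

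Collagens are triple helices of 3 alpha chains, and the set of chains a cell transcribes decides which collagen it can assemble. Fibrillar collagens build the fibres of connective tissue, collagen IV builds the sheet of basement membranes, and laminins are cross-shaped trimers of an alpha, a beta and a gamma chain that polymerise on cell surfaces and start a basement membrane. In the brain these proteins lie chiefly around vessels and under the pia, where meningeal fibroblasts, endothelium, pericytes and glial endfeet make them. Granule neuron precursors, from which Hedgehog medulloblastomas arise, proliferate just below the pial basement membrane.

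Collagen IV genes are arranged in head-to-head pairs, and the promoters of both pairs measured here are shown. Over the 12 tumours Col4a1 and Col4a2 moved together (r = 0.99), whereas Col4a5 and Col4a6 gave r = 0.10. Within R-type tumours alone the latter pair gave r = 0.95. Whether the promoters bear on these values was not tested. The windows run from 250 bases before to 50 after the annotated start in RefSeq (GRCm38.p6), 5′ to 3′ on the strand of the gene. Capitals mark the letters GGGCGG (a GC box), CCAAT or TATAAA, found on either strand, which do not overlap each other here. Col4a1 lies on the minus strand at chr8:11312777-11313076, and Col4a2 on the plus strand at chr8:11312555-11312854. Col4a6 lies on the minus strand at chrX:141474027-141474326, and Col4a5 on the plus strand at chrX:141475169-141475468. Lama5, minus strand at chr2:180225810-180226109, and Col17a1, minus strand at chr19:47691993-47692292, are added as a laminin that rose and a collagen that fell in tumours.
Col4a1: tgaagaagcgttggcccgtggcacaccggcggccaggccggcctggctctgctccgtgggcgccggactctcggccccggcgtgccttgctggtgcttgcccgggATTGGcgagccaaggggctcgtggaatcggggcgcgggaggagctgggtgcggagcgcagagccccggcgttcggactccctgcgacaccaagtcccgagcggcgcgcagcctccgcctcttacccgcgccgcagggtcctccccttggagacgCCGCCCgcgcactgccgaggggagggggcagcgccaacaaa
Col4a2: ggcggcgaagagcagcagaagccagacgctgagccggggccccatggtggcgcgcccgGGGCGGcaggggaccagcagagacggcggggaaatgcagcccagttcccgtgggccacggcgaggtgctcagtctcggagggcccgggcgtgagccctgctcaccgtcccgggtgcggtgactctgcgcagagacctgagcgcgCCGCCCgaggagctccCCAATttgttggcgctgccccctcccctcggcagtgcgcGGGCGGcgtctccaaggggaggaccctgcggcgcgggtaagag
Col4a5: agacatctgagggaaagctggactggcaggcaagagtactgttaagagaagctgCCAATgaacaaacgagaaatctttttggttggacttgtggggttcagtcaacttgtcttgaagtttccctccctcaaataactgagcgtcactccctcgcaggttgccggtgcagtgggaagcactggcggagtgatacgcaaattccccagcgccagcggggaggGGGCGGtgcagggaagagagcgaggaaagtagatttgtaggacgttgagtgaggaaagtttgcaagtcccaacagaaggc
Col4a6: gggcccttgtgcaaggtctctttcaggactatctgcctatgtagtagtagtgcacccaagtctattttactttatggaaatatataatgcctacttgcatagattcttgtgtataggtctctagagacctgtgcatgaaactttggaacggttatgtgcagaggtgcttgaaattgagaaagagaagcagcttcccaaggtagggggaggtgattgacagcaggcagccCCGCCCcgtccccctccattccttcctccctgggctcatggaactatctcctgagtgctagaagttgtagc
Lama5: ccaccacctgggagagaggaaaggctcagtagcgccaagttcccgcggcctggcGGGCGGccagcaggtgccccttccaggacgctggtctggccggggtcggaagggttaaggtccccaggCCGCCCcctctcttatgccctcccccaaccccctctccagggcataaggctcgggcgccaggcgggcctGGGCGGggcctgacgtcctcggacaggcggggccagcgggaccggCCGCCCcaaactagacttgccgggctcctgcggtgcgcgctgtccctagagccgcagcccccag
Col17a1: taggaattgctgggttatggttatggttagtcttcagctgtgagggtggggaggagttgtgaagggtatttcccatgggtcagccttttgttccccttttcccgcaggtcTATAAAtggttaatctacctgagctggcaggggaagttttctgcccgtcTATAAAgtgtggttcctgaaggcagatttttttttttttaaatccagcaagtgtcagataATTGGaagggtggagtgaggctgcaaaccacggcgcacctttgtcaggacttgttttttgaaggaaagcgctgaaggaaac

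The annotated starts of Col4a1 and Col4a2 were 21 bases apart on opposite strands, and their windows shared 78 bases that held 1 GC box. The starts of Col4a6 and Col4a5 were 1343 bases apart, and their windows did not meet. Both Col4a1 and Col4a2 windows were rich in G and C, at 74.0% and 73.7%, against 52.7% for Col4a5 and 48.3% for Col4a6. Lama5 held 4 GC boxes and no TATAAA, and Col17a1 held 2 TATAAA and no GC box. Of the 41 windows found for 37 members, 25 (61.0%) held GGGCGG, against 35.7% of all 32851 windows. CCAAT was in 34.1% of members' windows and 37.4% of all windows, and TATAAA in 12.2% and 13.6%. These matches describe the letters of the windows and were not tested.

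Tumours were first compared with normal cerebellum. Of the 42 members tested, 34 passed an adjusted p of 0.05, 22 higher and 12 lower in tumours. Fibrillar, collagen IV and laminin alpha chains were mostly higher, whereas 3 of the 4 transmembrane collagens and 2 of the 3 laminin beta chains were lower. Of these 2 beta chains, Lamb3 passed the filter only through the normal cerebella, so its test could give only a fall. It is included in the 12 lower. Most features on these arrays moved in this comparison. Of the 21662 tested, 13429 of them named by gene symbol, 78.9% passed the same threshold, 43.5% higher and 35.4% lower. The members' share of 81% is thus near the background. The median log2 change was 0.92 over the members and 0.14 over all features. For 24 of the 34, Lamb3 among them, no tumour overlapped any normal cerebellum. All 34 had the same sign on each of the 3 slides that carried a normal cerebellum. Neither count was made over all features, so neither sets the members apart from other genes.

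**Figure D1:**
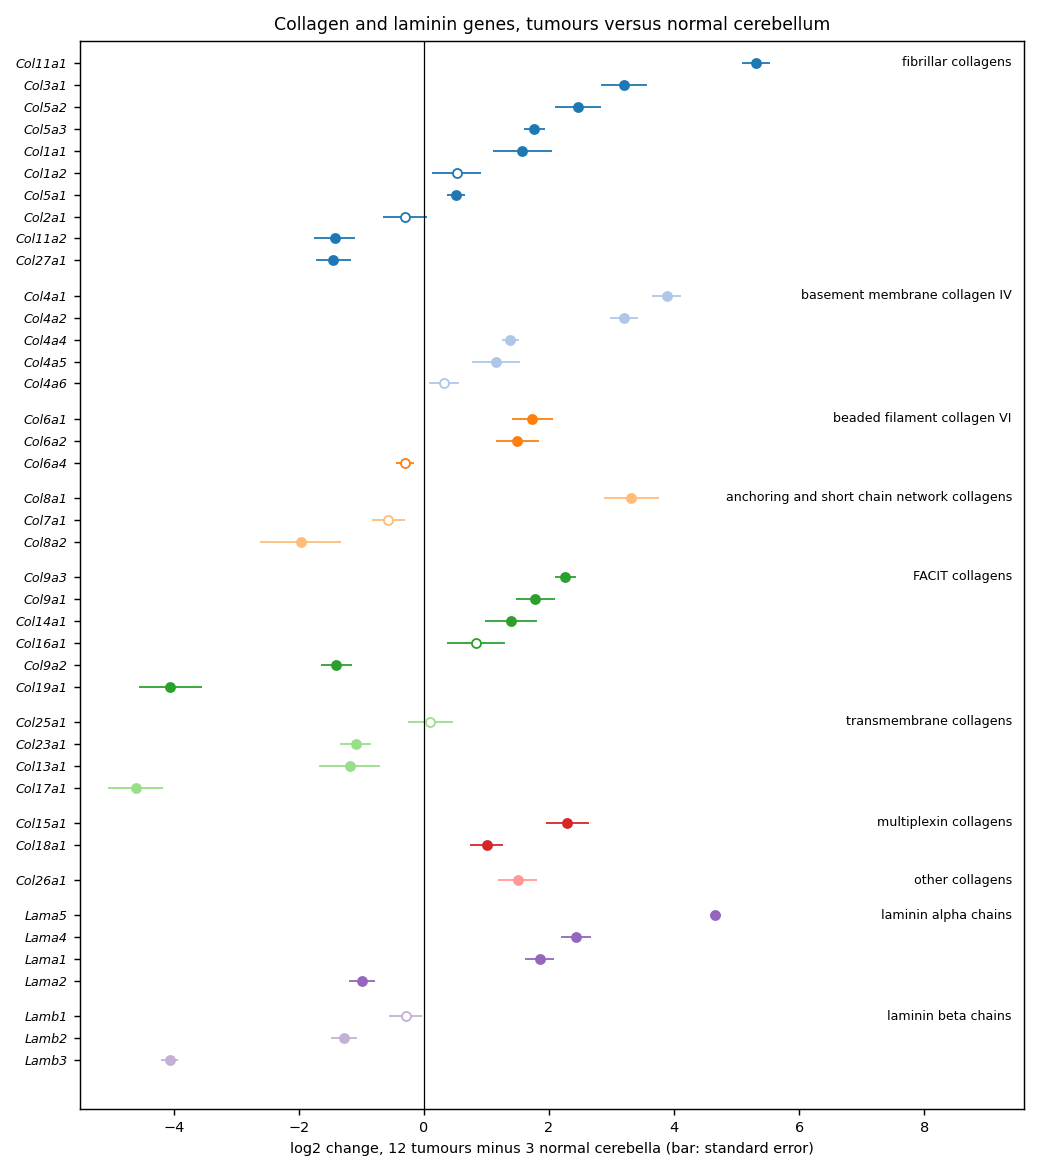
Log2 change (horizontal axis) of 41 of the 42 tested collagen and laminin genes, 12 tumours minus 3 normal cerebella, by class, with bars of 1 standard error. Filled circles mark adjusted p under 0.05 and open circles the rest. Col11a1 (5.31) and Lama5 (4.66) lie farthest right, and Col17a1 (-4.61) and Lamb3 (-4.07) farthest left, although Lamb3 in all 12 tumours and Col17a1 in all but 3 were not well above background.

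Among fibrillar collagens, 6 of 10 rose and 2 fell, beside 43.5% and 35.4% of all features. Col11a1, a minor chain that sits inside cartilage-type fibrils, read -4.20, -3.62 and -3.92 in the 3 normal cerebella and 0.73, 1.35 and 2.18 as the lowest, median and highest tumour. Every tumour was thus above every normal cerebellum, by 39.6-fold on average (log2 change 5.31, SE 0.224, limma, adjusted p = 5.26e-10). A dimmer Col11a1 probe rose by 2.97, and the mean of both probes by 4.14. Its partner chain Col11a2 went the other way, from -1.72, -1.14 and -1.62 to a range of -4.02 to -1.89 with a median of -2.94. The brighter probe fell by 1.43 (adjusted p = 0.0014), whereas a second Col11a2 probe, above background on 6 arrays, gave 0.62 (adjusted p = 0.149), and the mean of both probes did not pass the threshold (-0.41, adjusted p = 0.146).

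Col3a1, the chain of reticular fibres that surround vessels, read -1.46, -1.19 and -2.07 in normal cerebella and from 0.64 through 1.70 to 2.68 in tumours. The groups did not overlap, and the change was 3.20 (SE 0.369, adjusted p = 4.97e-06). Col5a2, a chain of the collagen that nucleates type I fibrils, read -4.32, -4.20 and -4.81 against a tumour range of -3.21 to -0.93 with a median of -1.97, a rise of 2.46 (adjusted p = 4.41e-05). Its partner Col5a1 rose by 0.51 only (adjusted p = 0.00541) and Col5a3 by 1.76 (adjusted p = 8.41e-07). Of the 2 chains of type I collagen, 1 passed the threshold. Col1a1 rose by 1.57 with overlap (adjusted p = 0.00887), and Col1a2 gave 0.52 (adjusted p = 0.235). The difference between the 2 changes was not tested. N3 had the lowest Col1a1, at -1.37 against -0.45 and -0.36, and it also had the lowest mean of 11 meningeal fibroblast genes, at -1.15 against 0.17 and 0.34. Col27a1, a fibrillar collagen of cartilage, fell by 1.45 (adjusted p = 0.000425), from -1.61, -1.51 and -1.13 to a median of -3.12. MB7 (-1.59) and MB9 (-1.62) lay at the normal level, and the other 10 tumours between -3.33 and -2.66. Col2a1, the main cartilage fibril, gave -0.31 (adjusted p = 0.43), with a second probe at -0.74 (adjusted p = 0.0193).

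Collagen IV, the scaffold of basement membranes, was higher for 4 of its 5 tested chains and lower for 0, beside 43.5% and 35.4% of all features. Col4a1 and Col4a2, the chains of the form found in all basement membranes, changed most. Col4a1 read -2.58, -2.44 and -2.31 in normal cerebella and 0.46, 1.56 and 2.24 as the lowest, median and highest tumour. Col4a2 read -1.96, -1.72 and -1.98, against 0.41, 1.43 and 2.16. Both sets were fully apart, with rises of 3.88 (14.7-fold, adjusted p = 1.06e-08) and 3.20 (9.19-fold, adjusted p = 5.13e-08). The weakest tumours for both genes were MB2 and MB3. Second probes agreed in sign, at 3.01 for Col4a1 and 3.11 for Col4a2.

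Col4a4, a chain of the collagen IV of the kidney filter and other specialised membranes, read -2.68, -2.50 and -2.56 in normal cerebella and -1.86, -1.18 and -0.64 as the lowest, median and highest tumour. It rose by 1.38 without overlap (adjusted p = 1.44e-06). Its usual partner Col4a3 was not well above background on any array. Col4a5 read -5.35, -5.54 and -5.97 in normal cerebella, where 1 of 3 was above background, and from -5.82 through -4.49 to -3.26 in tumours. The rise of 1.15 (adjusted p = 0.0138) overlapped and did not pass without N3 (0.98, adjusted p = 0.0721). Col4a6, its neighbour and partner, gave 0.32 (adjusted p = 0.238), from -2.51, -2.67 and -3.32 to a median of -2.58.

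Laminin chains went apart by type. Of the alpha chains, which bind the cell, 3 of 4 rose and 1 fell, beside 43.5% and 35.4% of all features. Lama5, the alpha chain of mature vessels and of many epithelia, read -2.17, -2.12 and -2.30 in normal cerebella and 1.98, 2.51 and 2.90 as the lowest, median and highest tumour. The 12 tumours spanned less than 1 log2 unit and lay over 4 units above the normal samples, a 25.3-fold rise with the smallest adjusted p of any member (log2 change 4.66, SE 0.0922, adjusted p = 8.46e-13). Within slides the change was between 4.66 and 4.74. Lama4, the alpha chain of endothelial membranes, read -3.10, -2.96 and -3.61 against -1.64, -0.78 and -0.17, and rose by 2.43 (adjusted p = 1.34e-06), with 2 further probes at 2.56 and 2.32. Lama1, the alpha chain of the embryo and of the pial membrane, read -4.25, -4.04 and -4.49 against -3.71, -2.17 and -1.65, and rose by 1.85 (adjusted p = 9.41e-06). Lama2, the alpha chain of muscle and of the glial side of vessels, fell by 0.99 (adjusted p = 0.000681), from -2.34, -2.09 and -2.59 to a median of -3.41 with slight overlap.

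The 3 beta chains gave no rise. Lamb1, the general beta chain, read -0.57, -0.55 and -0.52 in normal cerebella and from -1.50 through -0.85 to -0.15 in tumours, a change of -0.29 (adjusted p = 0.325). Lamb2, the beta chain of synaptic and vascular membranes, fell by 1.28 (adjusted p = 7.64e-05), from 0.01, 0.16 and -0.33 to -2.14, -1.37 and -0.61 without overlap. Lamb3, the beta chain of the laminin of epithelial anchoring, was measured in each normal cerebellum and was not well above background in any of the 12 tumours. It read -3.26, -3.23 and -3.20 in normal cerebella and was at least 4.37-fold lower in tumours. This bound sets the mean of the normal samples against the dimmest signal still above background on each tumour array. Lamb3 passed the filter of 3 arrays only through the normal cerebella. The test could thus give only a fall, and its p-value is left out. Lamc3 was not well above background on any array.

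**Figure D2:**
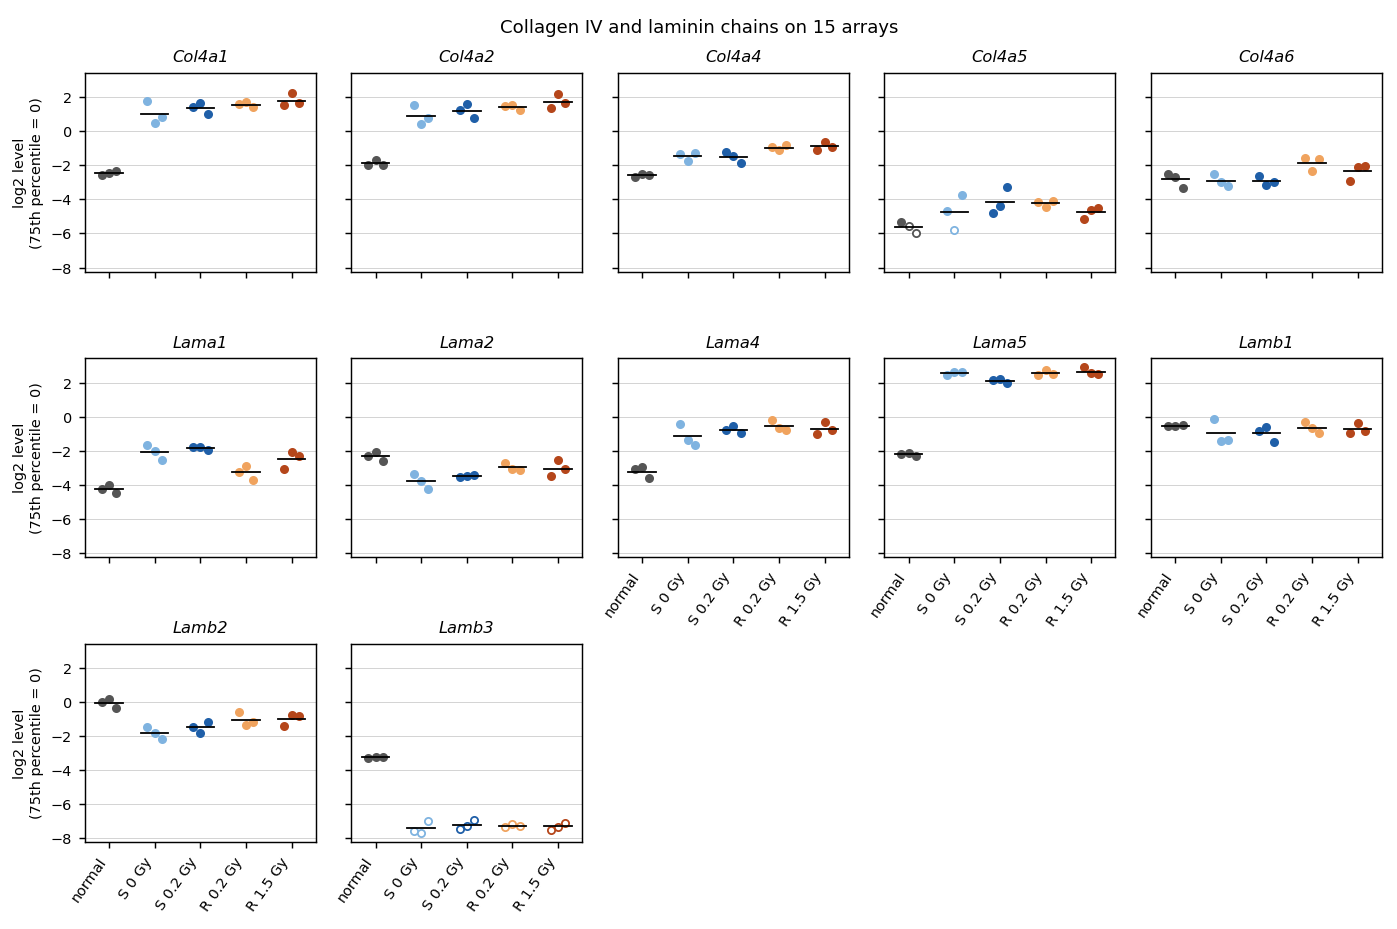
Log2 level (vertical axis, 0 is the 75th percentile of the array) of the 5 tested collagen IV chains and 7 laminin chains in each sample, by group; lines are group means of 3. Open circles were not well above background. Col4a1, Col4a2, Lama4 and Lama5 are higher in all 12 tumours than in any normal cerebellum, and Lamb3 is open in all 12.

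The transmembrane collagens, which span the plasma membrane, included no riser: 3 of 4 fell, beside 35.4% of all features. Col17a1, the collagen of the hemidesmosome that ties epithelial cells to their basement membrane, read -0.81, -1.24 and -1.24 in normal cerebella and from -7.42 through -5.81 to -4.19 in tumours, where 3 of 12 were above background. It fell by 4.61 on the log2 scale (SE 0.437, adjusted p = 8.17e-07), a size that rests on tumour signals mostly at background. A second probe, above background on 3 arrays, fell by 3.27. A probe above background on the normal cerebella alone could give only a fall, so this value adds no support. Col13a1 and Col23a1 fell by 1.19 (adjusted p = 0.0394) and 1.09 (adjusted p = 0.00154). Col25a1 gave 0.10 (adjusted p = 0.808), with 3 of 12 tumours above background.

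Among the receptors, Itga3, an integrin alpha chain that binds laminins, averaged -0.43 ± 0.06 (SD, n = 3) in normal cerebella and -3.98 ± 0.26 (SD, n = 12) in tumours, and fell by 3.55 (adjusted p = 4.17e-10). Itgb4, the hemidesmosome integrin, averaged 1.04 ± 0.41 and -2.79 ± 0.35, and fell by 3.83 (adjusted p = 5.44e-09). In contrast Itgb1, the shared beta chain of most matrix integrins, rose by 1.82 (adjusted p = 1.93e-10), and Ddr2, a tyrosine kinase that binds fibrillar collagen, rose by 2.80 (adjusted p = 1.18e-09). Over the 19 tested collagen and laminin receptors, 8 were higher and 6 lower, beside 43.5% and 35.4% of all features. Their median change was 0.16. Markers of differentiated neurons and glia moved in the same direction as these falls: 10 of 10 Purkinje cell genes, 10 of 10 mature granule neuron genes, 9 of 10 oligodendrocyte genes and 9 of 12 astrocyte and Bergmann glia genes were lower in tumours. Their part in the falls of Col17a1, Lamb3 and Col19a1 was not tested.

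**Figure D3:**
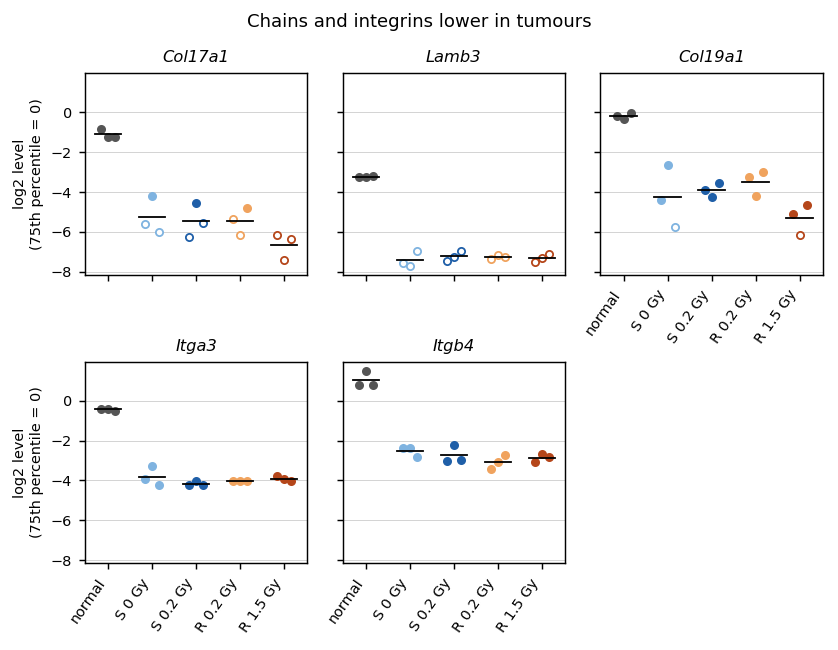
Log2 level (vertical axis, 0 is the 75th percentile of the array) of 3 matrix chains and 2 integrins in each of the 15 samples, by group; lines are group means of 3 and open circles were not well above background. Every tumour lies below every normal cerebellum in all 5 panels, and MB2 holds the highest tumour value of Col17a1 (-4.19) and Col19a1 (-2.65).

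FACIT collagens lie on the surface of fibrils made by others, and 3 of 6 rose and 2 fell, beside 43.5% and 35.4% of all features. Col9a3 rose by 2.26 (adjusted p = 8.26e-08) and Col9a1 by 1.78 (adjusted p = 0.000213), whereas Col9a2, the third chain of the same molecule, fell by 1.40 (adjusted p = 0.000234). Col9a3 read -0.04, -0.03 and -0.29 in normal cerebella and 1.15, 2.17 and 2.58 as the lowest, median and highest tumour, and Col9a2 read 0.43, 0.49 and 0.31 against -2.26, -0.76 and -0.38. Neither pair of ranges overlapped. Col19a1, a rare collagen that neurons also make, read -0.16, -0.34 and -0.04 in normal cerebella and from -6.18 through -4.22 to -2.65 in tumours, and fell by 4.06 (adjusted p = 9.67e-06). Col14a1 rose by 1.39 (adjusted p = 0.00844), with overlap and with 1 of 3 normal cerebella above background. Neither S-type group passed for Col14a1 against normal cerebellum (limma, adjusted p = 0.0888 at 0 Gy and 0.0953 at 0.2 Gy). Col16a1 gave 0.83 (adjusted p = 0.124).

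The remaining classes were small. Col8a1, a chain of the short network collagen of vessel walls, read -1.92, -1.90 and -3.28 in normal cerebella and from -0.29 through 0.99 to 2.02 in tumours, a rise of 3.31 (adjusted p = 1.82e-05). Its partner Col8a2 fell by 1.97 (adjusted p = 0.0142), but 3 of 12 tumours were above background, MB2 (-2.95), MB3 (-4.49) and MB4 (-4.92) lay within the normal range, and the call was lost without N1 (-1.69, adjusted p = 0.0711) or N2 (-1.55, adjusted p = 0.0869). Col6a1 and Col6a2, chains of the beaded filaments around cells, rose by 1.73 (adjusted p = 0.000405) and 1.49 (adjusted p = 0.00172), and Col6a4 gave -0.30 (adjusted p = 0.0694). The multiplexins Col15a1 and Col18a1, basement membrane collagens whose cleaved ends restrain vessel growth, rose by 2.29 (adjusted p = 5.49e-05) and 1.00 (adjusted p = 0.00354). Col26a1 rose by 1.50 (adjusted p = 0.000803). Col7a1, the anchoring fibril of skin, gave -0.57 (adjusted p = 0.0645).

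The genes that make, link and cut these proteins were read alongside. Of all features, 43.5% were higher and 35.4% lower in tumours, the background for this list and those below. Of 24 tested collagen biosynthesis genes, 13 were higher and 5 lower in tumours. Ppib, a prolyl isomerase of the collagen folding complex, rose by 2.07 (adjusted p = 2.9e-10). Plod2, which hydroxylates lysines for cross-links, rose by 2.46 (adjusted p = 1.59e-09). Colgalt1, which adds galactose to those lysines, and P4hb, a subunit of prolyl hydroxylase, rose by 1.24 and 1.18 (adjusted p = 4.63e-10 and 2.48e-08).

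Of 23 basement membrane and matrix partners, 15 were higher and 3 lower, with a median change of 1.14. Nid2, which bridges laminin and collagen IV, rose by 3.01 (adjusted p = 7.31e-07), Fbln2, a laminin-binding fibulin, by 5.04 (adjusted p = 4.24e-08), Smoc1 by 4.56 (adjusted p = 1.05e-09) and Postn, a collagen-binding matricellular protein, by 4.18 (adjusted p = 2.9e-08). Of 21 matrix proteases and inhibitors, 13 were higher and 5 lower. Mmp3, stromelysin, was not well above background in any normal cerebellum and was at least 77.2-fold higher in tumours. Mmp3 passed the filter only through the tumours, so its p-value is left out. Mmp2, the gelatinase that cuts collagen IV, rose by 5.04 (adjusted p = 7.94e-09). Mmp17, a membrane-anchored protease, fell by 4.53 (adjusted p = 2.26e-10), and the inhibitor Timp4 fell by 4.29 (adjusted p = 1.01e-07).

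Marker genes of other cell types were read beside the members, where 43.5% of all features were higher and 35.4% lower in tumours. Of 13 endothelial genes, 6 were higher and 5 lower in tumours, and their mean level was -0.47 to -0.28 in normal cerebella and -1.31 to -0.35 in tumours; Erg was not well above background on any array. Of 11 meningeal fibroblast genes, 4 were higher and 3 lower, at means of -1.15 to 0.34 and -1.20 to -0.19; Crabp2 was not above background on any array. Of 12 pericyte and smooth muscle genes, 6 were higher and 3 lower, at means of -0.54 to -0.19 and -0.30 to 0.73. Of 5 Schwann cell genes, 3 were higher and 2 lower, at means of -4.29 to -3.23 and -2.63 to -1.71. Of 11 microglia and macrophage genes, 8 were higher and 1 lower, at means of -1.68 to -1.27 and -0.53 to 0.28. Of 8 choroid plexus genes, 2 were higher and 1 lower. The part of these cells in the collagen and laminin changes was not tested.

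Each tumour group was also set against the same 3 normal cerebella, which the 4 comparisons share. The members that passed numbered 28 of 42 in unirradiated S-type tumours, where 74.2% of all features passed, and 33 in S-type tumours given 0.2 Gy, where 73.9% did. In R-type tumours they numbered 34 after 0.2 Gy, beside 74.1% of all features, and 34 after 1.5 Gy, beside 74.6%. In the same order, the median change of the members was 0.64, 0.98, 0.98 and 0.88. Laminins were called alike in number, 3 higher and 4 lower of 8 in each group, with Lamb3 among the lower each time. Collagen IV had 3, 4, 5 and 3 chains higher of 5.

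R-type tumours were next compared with S-type tumours. Over all doses, 10 of 42 members passed (23.8%), 8 higher and 2 lower in R-type, against 21.0% of all features. The median change was 0.29 over the members and 0.02 over all features. They were 2 of 5 tested collagen IV chains, 4 of 8 laminin chains (3 higher, 1 lower), 2 of 6 FACIT collagens, 1 of 2 multiplexins and Col7a1. Of the 10 fibrillar collagens, 0 passed in limma after adjustment and 1 at an unadjusted p of 0.05. The differences were small beside those from normal cerebellum, at most 0.92 on the log2 scale among the called members. In 8 of the 10 the groups overlapped, a count not made over all features.

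Lama1 was lower in R-type tumours. S-type tumours read -2.53, -1.86 and -1.65 as the lowest, median and highest of 6, and R-type tumours -3.71, -2.97 and -2.05, a change of -0.92 (SE 0.204, adjusted p = 0.00931). The R-type group at 0.2 Gy was nearest to normal cerebellum, at -3.24, -2.88 and -3.71. Those at 1.5 Gy read -3.06, -2.05 and -2.29, and MB11 and MB12 fell within the S-type range. On the 4 slides, the difference ran from -1.99 to 0.07. Across the alternatives run, the change was -1.14 to -0.60 and its adjusted p at most 0.0248.

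Col4a4 and Col9a3 separated the types completely. Col4a4 read -1.86, -1.37 and -1.24 in S-type and -1.12, -0.92 and -0.64 in R-type, a rise of 0.56 (adjusted p = 0.00956) that held its call in every alternative run. Col9a3 read 1.15, 1.94 and 2.07 in S-type and 2.27, 2.50 and 2.58 in R-type, a rise of 0.66 (adjusted p = 0.0102), which was not called without scaling between arrays (0.44, adjusted p = 0.0551). Within slides, Col4a4 differed by 0.32 to 0.70 and Col9a3 by 0.30 to 1.09.

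The other calls were nearer the threshold. Col4a6 was higher in R-type by 0.80 (adjusted p = 0.0223), with S-type tumours at -3.22 to -2.52 and R-type tumours at -2.93 to -1.59; a second Col4a6 probe gave 0.33 (adjusted p = 0.00998). Col18a1 was higher by 0.81 (adjusted p = 0.0297), at 2.07 to 3.96 and 3.45 to 4.55. Lamb2 and Lama2, both lower in tumours than in normal cerebellum, were each 0.63 higher in R-type than in S-type (adjusted p = 0.0294 and 0.0311). Col9a2 was 0.72 higher (adjusted p = 0.0414) and Lama5 0.26 higher (adjusted p = 0.041), and each lost its call in 16 of 25 alternatives; without scaling Lama5 gave 0.04 (adjusted p = 0.776). Col7a1 was 0.74 lower (adjusted p = 0.0437), at 0.31 to 1.51 in S-type and -0.61 to 0.45 in R-type, and lost its call in 14 of 25 alternatives. Lama2, Lamb2, Col18a1 and Col4a6 lost theirs in 10, 8, 7 and 4 of 25. Just outside the threshold stood Col9a1 at 0.85 (adjusted p = 0.0527) and Col6a1 at 0.83 (adjusted p = 0.0659). Col4a1 and Col4a2 gave 0.49 and 0.51 (adjusted p = 0.111 and 0.0949); both passed without MB1, at 0.67 each (adjusted p = 0.0134 and 0.0219).

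**Figure D4:**
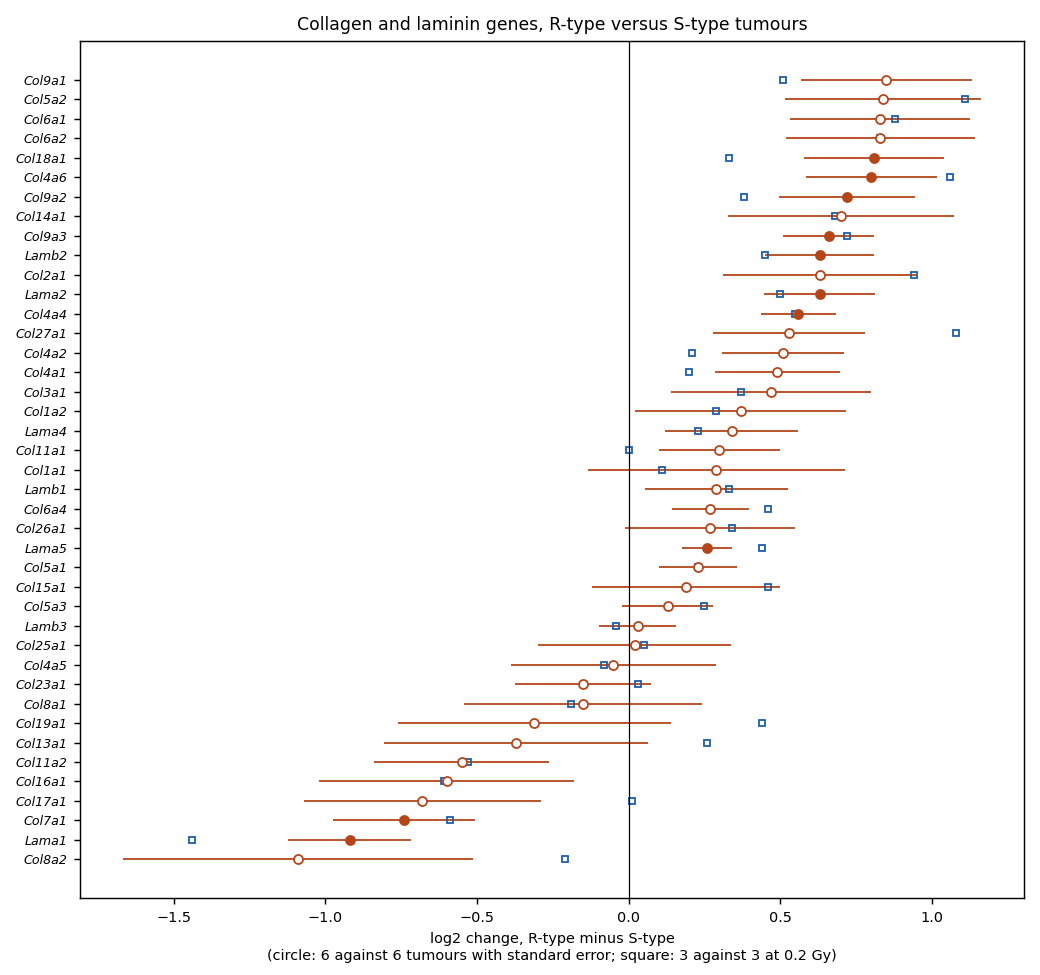
Log2 change (horizontal axis) of 41 of the 42 tested members, R-type minus S-type, ordered by size. Circles with bars of 1 standard error compare 6 with 6 tumours and are filled where adjusted p was under 0.05; squares compare 3 with 3 tumours at 0.2 Gy. Lama1 stands at -0.92 over all doses and at -1.44 at 0.2 Gy, where it is the 1 member that passed.

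The number of calls between types varied with scaling and with the tumours included. It was 4 without MB4, 4 without MB5, 6 without MB6, 5 without MB9 and 5 without MB11. Calls over all features fell too, from 4543 to 3692, 3622, 3533, 3038 and 3416 in the same order, so the drop is not particular to the members. The 75th percentile of the processed signal was 1183.9 to 1366.6 on R-type arrays and 1237.4 to 1611.1 on S-type arrays. Without scaling, the median of all features moved from 0.02 to -0.20, the share of higher calls among all called features moved from 51.9% to 9.0%, and 4 members passed, 2 higher and 2 lower. No named member turned its sign as a called value. With the slide as a term, 5 passed, 4 higher and 1 lower. Of 12 pericyte and smooth muscle genes, 4 were higher in R-type and 0 lower, beside 10.9% and 10.1% of all features. Their means were 0.39 to 0.73 in R-type and -0.30 to 0.50 in S-type tumours, where MB2 (-0.30) and MB3 (-0.11) were lowest. Of 13 endothelial genes 1 was higher, with means of -0.69 to -0.35 in R-type and -1.31 to -0.46 in S-type. The mean of 11 meningeal fibroblast genes was -1.20 to -0.34 in R-type and -0.89 to -0.19 in S-type. Their part in the differences between types was not tested.

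At 0.2 Gy, the dose that both types received, 1 of 42 members passed, against 4.77% of all features. Lama1 read -1.79, -1.79 and -1.93 in S-type and -3.24, -2.88 and -3.71 in R-type tumours. The groups were apart, with a change of -1.44 (SE 0.289, adjusted p = 0.0192). The call was lost with the slide as a term and without MB4, MB5, MB7 or MB9. Col4a4 and Col9a3 gave 0.55 (adjusted p = 0.0976) and 0.72 (adjusted p = 0.0761), also without overlap, and Lama5 gave 0.44 (adjusted p = 0.0545). Age still differed between these groups.

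Among genes around the pathway, Fbln2 was 1.64 higher in R-type (adjusted p = 0.0042), Vcan, a large matrix proteoglycan, 0.93 higher (adjusted p = 0.00487), Nid2 0.85 higher (adjusted p = 0.0348) and the fibrillin Fbn2 0.85 lower (-0.85, adjusted p = 0.0338). These were 3 higher and 1 lower of 23 matrix partners. Of all features, 10.9% were higher and 10.1% lower in R-type, the background for each list here. In collagen biosynthesis 2 of 24 were higher, Colgalt1 by 0.32 (adjusted p = 0.00103) and Plod2 by 0.47 (adjusted p = 0.00948). Of 19 receptors, 3 were higher and 2 lower. Bcam, a Lama5 receptor, was 0.80 higher (adjusted p = 0.0438), Sdc3 0.66 higher (adjusted p = 0.0401), and the changes of Dag1, the laminin receptor dystroglycan, and of the collagen receptor Lair1 were -0.31 and -0.59 (adjusted p = 0.0123 and 0.0169). Of 21 proteases and inhibitors, 2 were higher and 3 lower, with Timp3 at 0.57 (adjusted p = 0.00971), Plat at 0.40 (adjusted p = 0.033), Timp2 at -0.63 (adjusted p = 0.00731) and Adam17 at -0.19 (adjusted p = 0.043).

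Dose within a type gave no call among members. S-type tumours given 0.2 Gy, set against those given none, had 0 of 42 in limma after adjustment and 1 at an unadjusted p of 0.05, with member changes from -1.50 to 0.64. Among all features 0.00462% passed. R-type tumours given 1.5 Gy, set against those given 0.2 Gy, had 0 of 42 after adjustment and 3 at an unadjusted p of 0.05, with changes from -1.85 to 0.81, and 0.0692% of all features passed. In the latter comparison Col27a1 passed when MB8 was left out. With 3 tumours a group, these counts do not show that dose left the members unchanged. Age also went with dose within each type. It was 160 to 173 at 0 Gy and 128 to 135 at 0.2 Gy in S-type mice. In R-type mice it was 106 to 127 at 0.2 Gy and 87 to 103 at 1.5 Gy.

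Chains that share a molecule were then followed from tumour to tumour. Over the 12 tumours, 10 such pairs were compared, with p-values from 100000 permutations, adjusted over the 10. The permutations did not keep the types apart, and the pairs were chosen after seeing the data. Chains that do not share a molecule were not compared, so close movement is not shown to be particular to partners. Col1a1 and Col1a2 moved together (Pearson r = 0.99, Spearman rho = 0.92, permutation p = 1e-05 for r, the smallest that these permutations can give, and 5e-05 for rho; adjusted 5e-05 and 0.00025). So did Col4a1 and Col4a2 (r = 0.99, rho = 0.94, permutation p = 1e-05 and 2e-05, adjusted 5e-05 and 0.0002). Without the 2 tumours farthest from the median of the first chain, r was 0.97 for type I and 0.98 for type IV, and within each type of tumour it was 0.98 to 1.00 for both pairs.

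Col6a1 with Col6a2 gave r = 0.90 and rho = 0.89 (permutation p = 6e-05 and 0.00031, adjusted 0.0002 and 0.001), and 0.84 without the 2 farthest tumours. Its r was 0.76 within S-type and 0.87 within R-type tumours (exact permutation p = 0.0778 and 0.025). Col5a1 with Col5a2 gave r = 0.85 and rho = 0.85 (permutation p = 0.00033 and 0.00067, adjusted 0.00082 and 0.0017), and 0.89 without the 2 farthest. For this pair r was 0.95 within S-type and 0.64 within R-type tumours (exact permutation p = 0.00694 and 0.142). Col9a1 with Col9a2 gave r = 0.89 and rho = 0.75 (permutation p = 0.00058 and 0.0068, adjusted 0.0012 and 0.014), but 0.59 without MB1 and MB3, 0.92 within the 6 S-type tumours and -0.20 within the 6 R-type tumours (exact permutation p = 0.00833 and 0.719), so that this relation rested on S-type tumours. Col9a3 followed neither Col9a1 (r = 0.47, rho = 0.62, permutation p = 0.12 and 0.037, adjusted 0.2 and 0.062) nor Col9a2 (r = 0.31, rho = 0.55, permutation p = 0.33 and 0.067, adjusted 0.47 and 0.096) past the threshold.

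The remaining pairs did not pass. The chromosome X neighbours Col4a5 and Col4a6 gave r = 0.10 and rho = -0.03 (permutation p = 0.76 and 0.92, adjusted 0.84 and 0.99), although within R-type tumours r was 0.95 (exact permutation p = 0.0153) and within S-type tumours -0.32 (exact permutation p = 0.525); Col4a5 was dim, above background in 11 of 12. Col11a1 and Col11a2 gave r = -0.25 and rho = -0.01 (permutation p = 0.43 and 0.99, adjusted 0.54 and 0.99). Col8a1 and Col8a2 gave r = 0.07 and rho = 0.09 (permutation p = 0.84 and 0.78, adjusted 0.84 and 0.98), with Col8a2 above background in 3 of 12 tumours. The 12 arrays share platform and scaling.

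**Figure D5:**
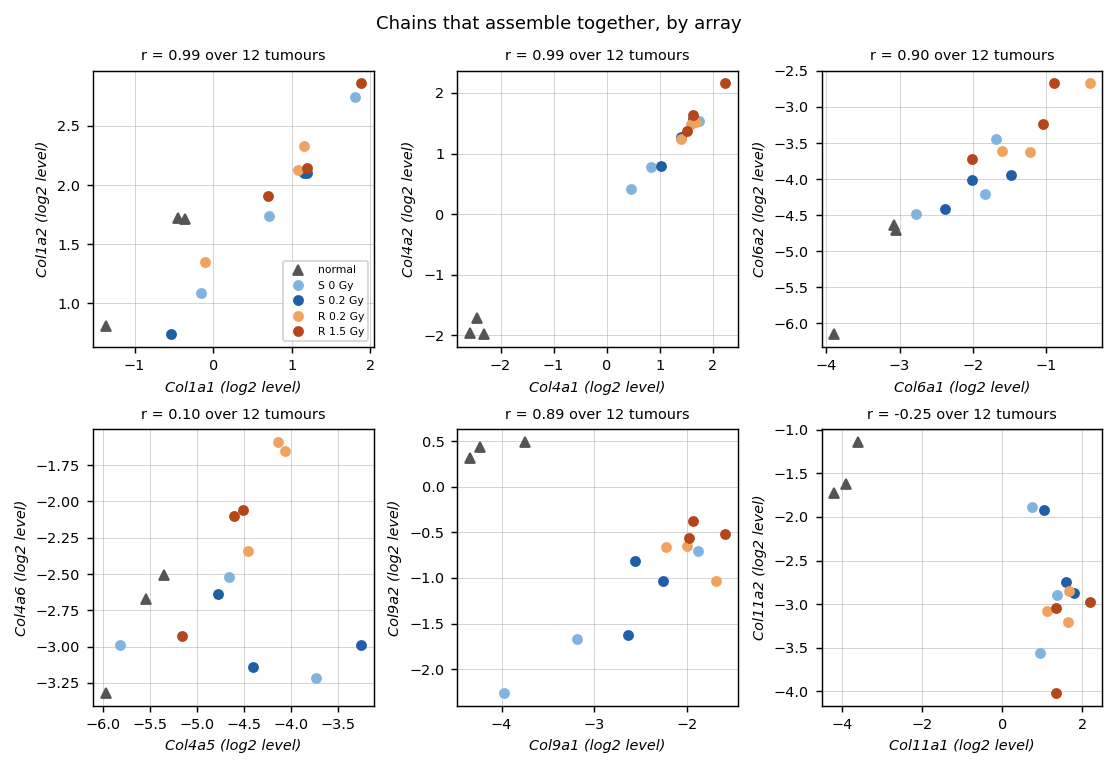
Log2 levels of 2 chains of the same molecule plotted against each other, 1 point per sample, triangles for normal cerebella and circles for tumours by group; r is Pearson's over the 12 tumours. Col1a1 with Col1a2 and Col4a1 with Col4a2 fall on lines (r = 0.99 each), whereas Col4a5 with Col4a6 (0.10) and Col11a1 with Col11a2 (-0.25) scatter.

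Set against the normal samples, the same pairs differ. The normal cerebella lay off the tumour line for type I, with Col1a2 at 1.72 and 1.71 in N1 and N2 beside Col1a1 at -0.45 and -0.36, and MB2, at a similar Col1a1 of -0.16, had Col1a2 at 1.09. Chains of collagen IX and of collagen XI changed in opposite directions between normal and tumour, Col9a1 and Col9a3 up and Col9a2 down, Col11a1 up and Col11a2 down on its brighter probe. Chains were not compared in level with each other, since each probe has its own response.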

How the data were processed

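RNA of 15 mouse samples was hybridised in 1 colour (Cy3) to Agilent arrays on 4 slides. The deposited array files held spot intensity on a linear scale, background-subtracted by the authors per the file headers with Feature Extraction (version 9.5.1 per the submitters' processing notes). The deposited series table held log2 values; its scale and direction matched these signals (r of differences between arrays from 0.99985), it was centred so that MB1 and MB2 sum to 0, and its column medians ran from -0.0795 to 0.152. How the authors made it is not given in the sources used here.

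Here log2 intensities were reduced by each array's 75th percentile, control spots and outlier-flagged spots left out (76 probes), spots averaged, and probes named through RefSeq accessions (24800 of the 26335 that carry one). The 5 groups of 3 arrays entered 1 limma fit (version 3.58.1, R 4.3.3; 10 residual degrees of freedom), with Benjamini-Hochberg adjustment over 21662 names, of which 13429 are symbols. The fit was tested on simulated data. Background-corrected (normexp) signals started from spot medians. The array design is of an older build, so no coordinates were taken for probes; promoter windows come from RefSeq by symbol.

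Members and lists were chosen with earlier results of these data known. Named in full are the 8 highest and 8 lowest called members measured above background throughout the higher group, all collagen IV and laminin chains, members called between types, and up to 4 genes per list and contrast; the chain pairs were added after seeing the data. The values of 1 member and of 1 marker gene are not reported here, and both stay in the counts. Alternatives were scaling, background, filters, probe averaging, the deposited table, slide, trend, groups fitted, and each array left out.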

Additional observations from a re-analysis of the deposited data

Results flagged for a closer look

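Among the 6 R-type tumours, MB11 lay far from the others in 2 genes. Col4a1 was 2.24 in MB11 and 1.40 to 1.69 in the other 5 tumours, and Col11a2 was -4.02 in MB11 and -3.20 to -2.85 in the others. The gap to the nearest tumour was 0.658 and 0.704 of the whole range, above Dixon's limit of 0.625 for 6 samples. 41 groups of values were examined, and chance alone marks about 1 in 20. In MB11, Col4a2 (2.16), Col18a1 (4.55), Col1a1 (1.88), Col1a2 (2.86) and Col3a1 (2.68) were also the highest of the 12 tumours.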

How the results depend on the processing

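Members called in tumours against normal cerebellum numbered 34, 33 to 36 under other settings and 29 to 35 with 1 array left out; Lamb3 left the test without any 1 normal cerebellum. Among 23 named members, 3 of 339 values with an array left out and 1 of 207 others lost the call, and 0 reversed. The counts per tumour group against normal stayed within 1.5 times of 28, 33, 34 and 34 (22 to 29, 26 to 34, 28 to 35 and 28 to 34 with an array left out).

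Members called between R-type and S-type numbered 10, but 4 without scaling, 6 without the filter, 5 with slide as a term, 5 fitting only the groups compared, 12 with quantile scaling, 15 with normexp (13 higher, 2 lower), 11 with a stricter filter or an intensity trend, and 4 to 10 with an array left out. Calls over all features moved as well, from 4543 to 3038 without MB9 and to 5283 without MB3. Among 17 named members, 54 of 249 values with an array left out and 22 of 170 others lost the call, 2 and 1 gained it, and 0 reversed. At 0.2 Gy the count was 1, but 2 with quantile scaling, 3 with normexp, 2 averaging probes, 0 with slide, 2 with an intensity trend, and 0 to 3 with an array left out. For 1.5 Gy against 0.2 Gy it was 0, or 0 to 1 with an array left out, and 0 to 0 for 0.2 Gy against 0 Gy.

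Normal cerebellum and S-type 0 Gy share replicate numbers only: deviations of same-numbered samples correlated at 0.05, -0.02 and -0.00. With a replicate block, 29 members were called against 28. Col8a2, Col17a1 and Col25a1 were above background in 3 of 12 tumours, and Lamb3 in 0 of 12, which limits their changes. Col4a5 and Col14a1 were above background in 1 of 3 normal cerebella, which limits theirs.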
